A study of Homo sapiens with 6 samples.

Results

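The replication-dependent, or canonical, histone genes of the HIST clusters were described across 6 RNA-seq libraries of HK-2 cells, an immortalised line of human renal proximal tubule epithelium. Members were the protein-coding rows of the count table whose symbol begins with HIST1H, HIST2H, HIST3H or HIST4H. The rule uses no measured level, but it was chosen with earlier results of these data known. This gave 66 of 28565 genes, among them 6 H1, 16 H2A, 17 H2B, 13 H3 and 14 H4 genes. By cluster, 52 were HIST1 genes on chromosome 6, 11 were HIST2 and 2 were HIST3 genes on chromosome 1, and 1 was the HIST4 gene on chromosome 12.

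The groups were 3 libraries of cells exposed for 24 h to cisplatin, a platinum drug that crosslinks DNA, and 3 libraries of cells at 0 h of cisplatin. Both groups carried an overexpression plasmid, called LncR2 in the sample titles, for a long noncoding RNA. The plasmid was introduced by lipofection, and the cells were then incubated for 48 h. Cells with a control plasmid were not analysed here, so cisplatin and time after transfection cannot be told apart, and the effect of the plasmid is not measured. Separate cultures are not stated for the 3 libraries of each group, where the series' design mentions 2 biological replicates, so p-values cover only the spread between these libraries.

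Canonical histones package newly replicated DNA, and their genes are transcribed mainly in S phase. Most of their mRNAs have no introns and no poly(A) tail: they end just after a short stem-loop that is bound by the stem-loop binding protein SLBP, and they are degraded when DNA synthesis stops. H2A, H2B, H3 and H4 form the nucleosome core, and H1 binds the linker DNA between nucleosomes. Ribosomal RNA was depleted from total RNA here and no poly(A) selection is described, so mRNAs without a tail can be seen.

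The stem-loop is shown because it sets these mRNAs apart from other mRNAs. The search took only fully complementary stems that start with GG and loops that start with TT, so other forms would be missed. A 16-base stem-loop of this kind (stem of 6, loop of 4 bases) was found downstream of the stop codon in 28 of the 36 members that GENCODE 29 annotates beyond the coding sequence. The other 30 members are annotated as coding sequence alone there and could not be searched. It had 4 forms, printed 5′ to 3′ as DNA with the stem in capitals. The first was held by 16 members, among them HIST3H2BB and HIST1H2AC, the second by 4, among them HIST1H2BF, and the last pair by 5 and 3 members, all of them H4 genes.
HIST3H2BB: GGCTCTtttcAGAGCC
HIST1H2BF: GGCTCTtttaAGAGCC
HIST1H4E: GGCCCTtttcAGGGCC
HIST1H4I: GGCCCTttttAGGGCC

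Promoters are shown for members that the comparison turns on, including the 2 back-to-back H2A and H2B pairs with the lowest log2 fold changes. Each is the 150 bases before the RefSeq start site (GRCh38.p14), with complete matches on either strand in capitals to the TATA box TATAAA, the CCAAT box CCAAT, the octamer ATTTGCAT and the H1 box AAACACA. The stretches are chr6:26234988-26235137 (minus strand) for HIST1H1D, chr6:26032100-26032249 (minus) for HIST1H3B, chr6:27814778-27814927 (minus) for HIST1H2AJ and chr6:27814872-27815021 (plus) for HIST1H2BM. Those of HIST3H2A and HIST3H2BB are chr1:228457874-228458023 (minus) and chr1:228457953-228458102 (plus). Within each of these pairs the stretches overlap.
HIST1H1D: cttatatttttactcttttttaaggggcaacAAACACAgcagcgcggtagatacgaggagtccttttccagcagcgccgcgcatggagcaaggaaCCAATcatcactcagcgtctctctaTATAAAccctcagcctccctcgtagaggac
HIST1H3B: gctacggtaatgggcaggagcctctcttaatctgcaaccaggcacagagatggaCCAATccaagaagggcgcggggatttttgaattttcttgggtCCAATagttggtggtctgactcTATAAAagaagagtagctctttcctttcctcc
HIST1H2AJ: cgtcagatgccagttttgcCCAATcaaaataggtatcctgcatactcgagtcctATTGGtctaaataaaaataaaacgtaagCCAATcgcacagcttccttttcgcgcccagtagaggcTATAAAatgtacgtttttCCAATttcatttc
HIST1H2BM: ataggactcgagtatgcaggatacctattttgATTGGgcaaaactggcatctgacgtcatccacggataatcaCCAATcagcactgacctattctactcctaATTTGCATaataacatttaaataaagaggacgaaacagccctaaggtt
HIST3H2A: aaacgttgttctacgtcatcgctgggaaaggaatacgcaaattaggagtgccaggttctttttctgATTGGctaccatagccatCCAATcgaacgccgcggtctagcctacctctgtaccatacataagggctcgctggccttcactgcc
HIST3H2BB: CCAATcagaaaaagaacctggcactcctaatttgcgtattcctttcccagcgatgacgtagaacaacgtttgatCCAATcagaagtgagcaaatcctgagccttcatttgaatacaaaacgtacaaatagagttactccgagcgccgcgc

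Over the whole promoter window of 300 bases (250 before to 50 after the start), 60 members were matched to RefSeq. The octamer, the site that the factor OCT1 binds in H2B genes, was in 12 of 16 H2B and 10 of 15 H2A windows and in none of the H1, H3 or H4 windows, against 1.77% of 35116 RefSeq promoters. The H1 box was in 6 of 6 H1 windows, 2 of 11 H3 and 1 of 15 H2A windows, against 5.64% of all promoters. CCAAT was in every H1, H2A, H2B and H3 window matched but in only 3 of 12 H4 windows (25%), against 34.6% of all promoters. TATAAA was in 38 of 60 members (63.3%), against 11.5% of all promoters. These matches describe letters in a window and are not mapped binding sites.

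Total counts were 6022268 to 7248754 per library at 24 h and 5028881 to 5844246 at 0 h. Members took 0.536%, 0.658% and 0.616% of the counts in 24 h replicates 1, 2 and 3, against 0.542%, 0.514% and 0.659% in 0 h replicates 1, 2 and 3. Replicate 3 of 0 h stood apart from the other 0 h libraries on the first and second principal components of all genes. On the first (39.3% of variance) it had 1.28, against -23.8 and -24.5 for 0 h replicates 1 and 2 and 6.29 to 22.9 at 24 h. On the second it had -30.4, against 8.5 and -1.48 for 0 h replicates 1 and 2. This library had the highest level of the 0 h group in 46 of the 57 tested members. The epithelial markers KRT8, KRT18, KRT19, EPCAM and CDH1 summed to 670 to 753 CPM (counts scaled to a common library total) at 24 h and 610 to 715 CPM at 0 h, mostly from KRT8 and KRT18, while CDH1 had at most 1 count in a library. The kidney lineage factors PAX2 and PAX8 summed to 304 to 413 CPM at 24 h and 329 to 470 CPM at 0 h. Of 13 proximal tubule genes 3 passed the filter on low counts, and LRP2, SLC22A6 and SLC22A8 were at 0 or not listed. Leukocyte, endothelial and fibroblast markers summed to at most 1.3 CPM in any library, with PTPRC, CD3E and PDGFRA among those at 0 or not listed. None of the marker genes tested was called, and their part in the results was not tested. In bulk RNA, fewer cells in S phase and less histone mRNA per cell cannot be told apart.

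The summed histone mRNA at 24 h and 0 h differed by less than the spread between libraries, and the members that differed were few and went both ways. All 66 members together had 5320, 6684 and 6123 CPM (TMM-scaled totals) in the 24 h libraries, against 5450, 5070 and 6799 CPM in the 0 h libraries. The groups overlapped, and the highest single library was 0 h replicate 3. The means were 6043 ± 685 CPM at 24 h and 5773 ± 909 CPM at 0 h (SD, n = 3 each), a log2 ratio of 0.07, which is smaller than the spread between libraries. Without 0 h replicate 3 the 0 h mean was 5260 CPM and the log2 ratio 0.20.

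**Figure D1:**
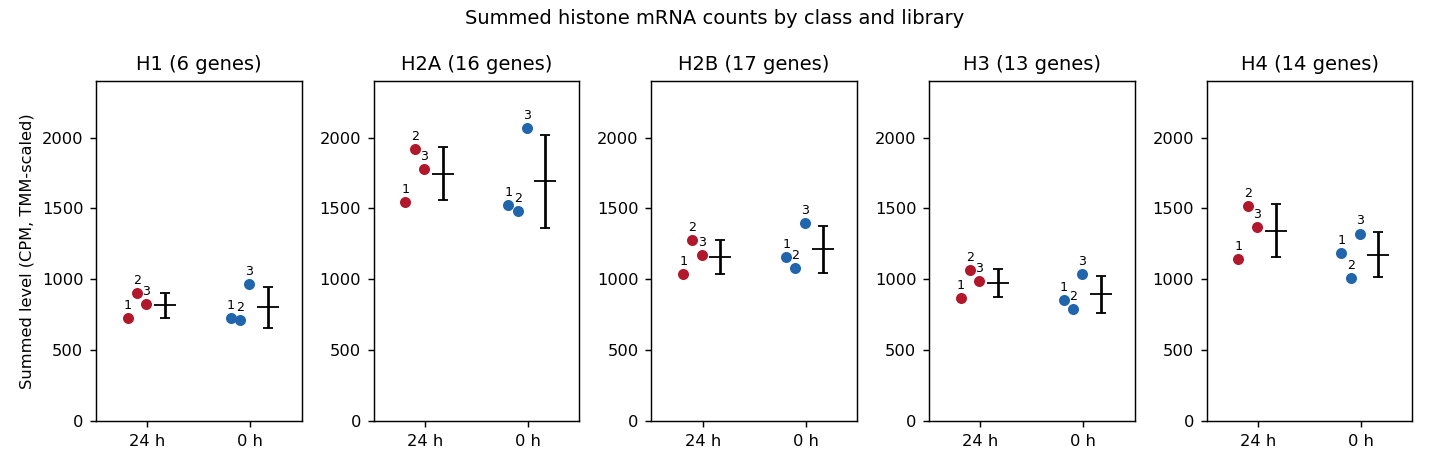
Summed levels of each histone class in CPM (TMM-scaled) for each library, numbered by replicate, with 24 h left of 0 h and mean ± SD beside the points (n = 3 libraries per group). In every class the groups overlap, and 0 h replicate 3 is the highest 0 h library.

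Each class sum differed little between the groups. H1 genes summed to 817 ± 90.0 CPM at 24 h and 802 ± 145 CPM at 0 h, a log2 ratio of 0.03. H2A genes summed to 1747 ± 189 CPM at 24 h and 1692 ± 327 CPM at 0 h, a log2 ratio of 0.05. H2B was the only class with a lower mean at 24 h, 1160 ± 120 CPM, against 1211 ± 167 CPM at 0 h, a log2 ratio of -0.06. The class sums of H3 were 975 ± 99.5 CPM at 24 h and 894 ± 130 CPM at 0 h, a log2 ratio of 0.13. For H4, 1344 ± 188 CPM at 24 h and 1174 ± 156 CPM at 0 h gave the largest log2 ratio, 0.19. For H4 the difference was larger than the SD at 0 h but smaller than the SD at 24 h. In the other classes the difference was smaller than the SD of either group (n = 3 each), and the sums carry no test. These SDs hold spread that the classes share, so they do not measure 1 class against another. H3 and H2B had 871 and 1036, 1069 and 1275, and 986 and 1170 CPM in 24 h replicates 1, 2 and 3. In 0 h replicates 1, 2 and 3 they had 856 and 1157, 787 and 1077, and 1039 and 1398 CPM. Relative to H2B, H1, H2A, H3 and H4 were each higher in every 24 h library than in any 0 h library, which was not tested. Without 0 h replicate 3 the log2 ratios were 0.19 for H1, 0.22 for H2A, 0.05 for H2B, 0.25 for H3 and 0.29 for H4, so that of H2B changed sign.

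By cluster, the HIST1 genes summed to 5646 ± 638 CPM at 24 h and 5379 ± 839 CPM at 0 h, and the HIST2 genes to 301 ± 40.5 CPM at 24 h and 293 ± 62.3 CPM at 0 h. HIST4H4, an H4 gene apart from the clusters, had 84.3 ± 8.74 CPM at 24 h and 80.4 ± 19.3 CPM at 0 h. The small HIST3 cluster was the exception. Its 2 genes together had 11.2, 11.7 and 9.19 CPM in the 24 h libraries, against 19.9, 18.2 and 20.8 CPM in the 0 h libraries. The 24 h libraries all lay below the 0 h libraries, and the log2 ratio of the means was -0.88 (SD, n = 3 each: 10.7 ± 1.34 CPM at 24 h and 19.7 ± 1.32 CPM at 0 h).

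Levels between genes were compared within a group as FPKM, the authors' values scaled by gene length and library size. The most abundant members at 24 h were HIST1H3B with 624 ± 91.5 FPKM, HIST1H4E with 548 ± 93.5 FPKM and HIST1H4J with 462 ± 150 FPKM (SD, n = 3), and these neighbours in the order did not differ beyond their spread. At 0 h they were HIST1H4E with 449 ± 41.7 FPKM, HIST1H3B with 371 ± 46.3 FPKM and HIST1H3C with 363 ± 66.1 FPKM, and the ranges of these neighbours again overlapped. Of the 20 most abundant members at 24 h, 17 were also among the 20 most abundant at 0 h. H1 and H3 rested on few genes: the top 3 members took 97.7% of H1 counts and 72.7% of H3 counts over all libraries, against 37.0% for H2B and 46.6% for H2A. FPKM depends on the length the authors used. From each member's count over its FPKM, 32 of 56 members with at least 20 counts in a library were scaled by the length of the coding sequence (within 1%), among them HIST1H3B, HIST1H3C and HIST1H4E, and the other 24, such as HIST1H4J, by a longer one.

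Of the 66 members 57 passed the filter on low counts and 9 did not, none of which had more than 14 counts in a library. Changes were called from edgeR's quasi-likelihood test on the count table at a Benjamini-Hochberg adjusted p under 0.05 over all 13389 genes tested. HIST1H3B and HIST1H4A were called higher at 24 h, 2 of 57 tested members (3.51%), where 0.866% of all genes tested were called higher. HIST1H2BM, HIST1H1D, HIST3H2BB, HIST1H2AJ and HIST1H2BF were called lower, 5 of 57 (8.77%), where 2.08% of all genes were called lower. Members had a median log2 fold change of -0.03, with 28 above and 29 below 0, and the median over all genes tested was -0.0016. Groups did not overlap for 4 members that were higher (7.02%) and 12 that were lower (21.1%), against 10.9% and 11.7% of all genes. Without 0 h replicate 3, 12 members were called higher and 5 lower, out of 574 and 923 genes in all.

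**Figure D2:**
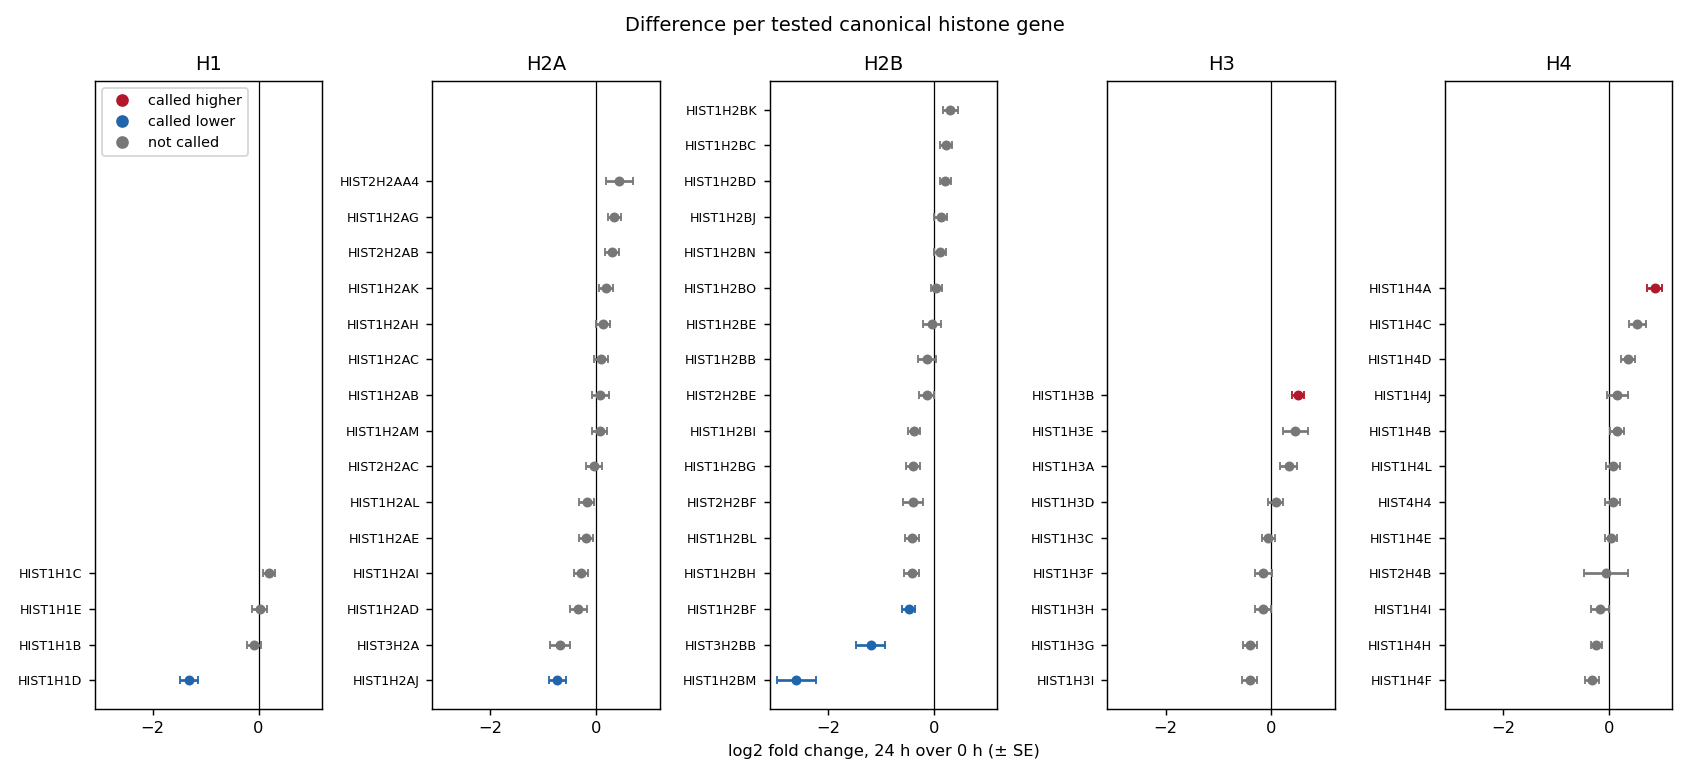
Log2 fold change of 24 h over 0 h with its standard error for the 57 tested members (n = 3 libraries per group), by class and in order of size; red marks members called higher, blue members called lower and grey members not called. Most members lie near 0, and HIST1H2BM (-2.60) and HIST1H1D (-1.31) lie farthest below it.

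Among the linker histones, HIST1H1D, which encodes the somatic subtype H1.3 (chr6:26234268-26234933, minus strand, annotated as a single exon), was the only one of 4 tested genes that was called. It had 9.07, 11.9 and 11.9 CPM in the 24 h libraries, against 23.3, 26.8 and 31.8 CPM in the 0 h libraries. Every 24 h library lay below every 0 h library. HIST1H1D fell by 1.31 ± 0.17 on the log2 scale (SE; edgeR, adjusted p = 4.37e-04). It took 1.34 ± 0.0999% of H1 counts at 24 h and 3.42 ± 0.301% at 0 h (SD, n = 3 each), a share that does not depend on how libraries are scaled. The call held without each library in turn, with log2 fold changes from -1.41 to -1.18, and no stretch of 50 bases of its transcript was found in another gene.

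The 3 abundant somatic H1 genes did not pass the test. HIST1H1C (H1.2), whose mRNA can also be polyadenylated, averaged 282 ± 33.1 CPM at 24 h and 247 ± 28.9 CPM at 0 h (log2 fold change 0.19 ± 0.11). HIST1H1E (H1.4) averaged 367 ± 44.2 CPM at 24 h and 362 ± 83.7 CPM at 0 h, a log2 fold change of 0.02 ± 0.14 that was -0.08 to 0.23 when libraries were left out in turn. HIST1H1B (H1.5) averaged 156 ± 19.9 CPM at 24 h and 165 ± 28.9 CPM at 0 h, a log2 fold change of -0.08 ± 0.13 that was 0.07 without 0 h replicate 3. HIST1H1A (H1.1) had at most 3 counts in a library and the testis gene HIST1H1T at most 1, so neither was tested. HIST1H2AA, HIST1H2BA and HIST3H3, linked to testis, were not listed under these symbols in the count table.

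Among the H2A genes, 1 of 15 tested was called. HIST1H2AJ (chr6:27814354-27814740, minus strand) had 15.0, 22.4 and 17.0 CPM in the 24 h libraries, against 26.7, 29.4 and 34.4 CPM in the 0 h libraries. The groups did not overlap, and it fell by 0.73 ± 0.16 on the log2 scale (SE; edgeR, adjusted p = 0.0225). Its reads are uncertain, because 83.7% of the 50-base stretches of its annotated transcript also occur in another gene. The gene that shares the most of them is HIST1H2AI. Summed over both genes, there were 63.0, 82.9 and 75.4 CPM in the 24 h libraries, against 90.1, 89.2 and 114 CPM in the 0 h libraries, which again did not overlap. Leaving out 24 h replicate 1 or 3, or replicate 2 of 0 h, ended the call (edgeR, adjusted p = 0.0873, 0.0801 and 0.0944), with log2 fold changes of -0.62, -0.69 and -0.76.

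HIST3H2A, the H2A gene of the HIST3 cluster, had 7.42, 6.80 and 6.99 CPM in the 24 h libraries, against 11.8, 10.2 and 12.2 CPM in the 0 h libraries. The groups did not overlap, but its log2 fold change of -0.69 ± 0.18 missed the threshold (edgeR, adjusted p = 0.0573). It passed when protein-coding genes alone were fitted (adjusted p = 0.0464) and with a length (0.0342) or GC correction (0.0279), with log2 fold changes of -0.70, -0.76 and -0.74. The most abundant H2A members per length were not called: HIST1H2AM had a log2 fold change of 0.07 ± 0.14, HIST1H2AE of -0.19 ± 0.13 and HIST1H2AD of -0.33 ± 0.16. In CPM, HIST1H2AG was the highest H2A member at 24 h (385 ± 53.5 CPM). Its log2 fold change of 0.35 ± 0.12 was not called with all libraries but was called higher without 0 h replicate 3. HIST2H2AA4 had the largest positive value of the class, 0.44 ± 0.25, and HIST2H2AB (0.30 ± 0.13) and HIST2H2AC (-0.04 ± 0.15) lay nearer to 0. HIST2H2AA3 and HIST2H2AA4 share nearly all of their sequence, and their summed count was 53, 88 and 85 in the 24 h libraries, against 24, 41 and 64 in the 0 h libraries. Without 0 h replicate 3, HIST2H2AA4 (0.78) and HIST2H2AB (0.42) were called higher (edgeR, adjusted p = 0.0254 and 0.0107).

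H2B held the largest fall and the most calls, 3 of 17 tested, all of them lower. HIST1H2BM (chr6:27815044-27815424, plus strand) is a rare member, with 3, 5 and 11 counts in the 24 h libraries, against 24, 31 and 36 counts in the 0 h libraries. This was 0.495, 0.724 and 1.51 CPM at 24 h, against 4.78, 6.08 and 6.36 CPM at 0 h. The groups lay far apart, although counting error weighs on such low counts. HIST1H2BM fell by 2.60 ± 0.37 on the log2 scale (SE; edgeR, adjusted p = 8.35e-04), and it was called without each library in turn, with values from -3.19 to -2.33. None of its 50-base stretches was found in another gene.

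HIST3H2BB (chr1:228458107-228460470, plus strand), the H2B gene of the HIST3 cluster, had 3.79, 4.92 and 2.19 CPM in the 24 h libraries, against 8.17, 8.04 and 8.65 CPM in the 0 h libraries. The groups did not overlap, and the 24 h libraries varied more than the 0 h libraries. HIST3H2BB fell by 1.19 ± 0.27 on the log2 scale (SE; edgeR, adjusted p = 0.0239). Leaving out replicate 3 of 24 h or replicate 2 of 0 h ended the call (edgeR, adjusted p = 0.0915 and 0.095), with log2 fold changes of -0.92 and -1.22.

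HIST1H2BF (chr6:26199520-26200715, plus strand) encodes the same protein as HIST1H2BC, HIST1H2BE, HIST1H2BG and HIST1H2BI. It had 57.4, 61.8 and 59.1 CPM in the 24 h libraries, against 74.0, 76.6 and 97.1 CPM in the 0 h libraries. The 24 h libraries lay close together and below all 0 h libraries, and the gene fell by 0.48 ± 0.12 on the log2 scale (SE; edgeR, adjusted p = 0.0393). Of the genes for the same protein, HIST1H2BG (-0.39 ± 0.13) and HIST1H2BI (-0.37 ± 0.12) were not called though their groups did not overlap, HIST1H2BE had -0.03 ± 0.16, and HIST1H2BC had 0.23 ± 0.12. The call for HIST1H2BF was lost in 4 of the 6 fits that left out 1 library (without any 1 of the 24 h libraries, or 0 h replicate 2; log2 fold changes from -0.53 to -0.45, adjusted p from 0.104 to 0.159) and with library totals taken from the FPKM values (-0.24, adjusted p = 0.207).

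The most abundant H2B member per length at 24 h, HIST1H2BO, averaged 97.6 ± 8.55 CPM at 24 h and 94.5 ± 2.29 CPM at 0 h. In CPM, HIST1H2BC was the highest H2B member at 24 h (168 ± 16.9 CPM). HIST1H2BK had the largest positive value of the class, 0.32 ± 0.14, and 74.1% of its 50-base stretches occur in another gene. HIST2H2BE had a log2 fold change of -0.13 ± 0.14 and HIST2H2BF one of -0.40 ± 0.19, and neither was called.

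**Figure D3:**
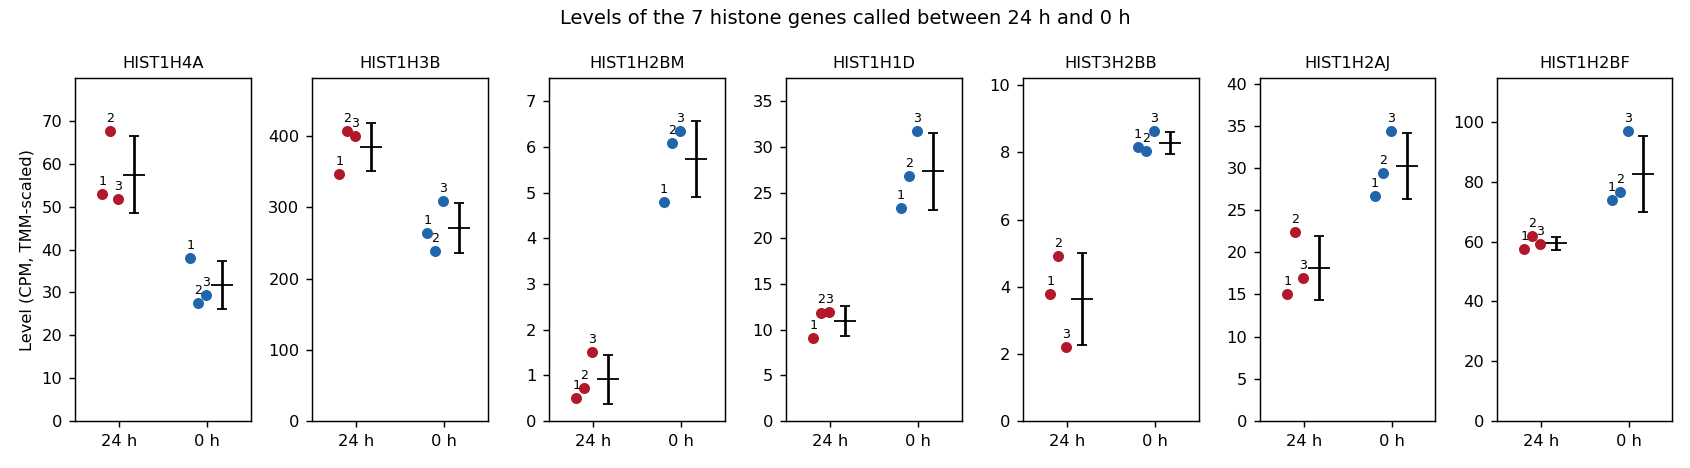
Levels in CPM (TMM-scaled) of the 7 called members in each library, numbered by replicate, with 24 h left of 0 h and mean ± SD beside the points (n = 3 libraries per group); each panel starts at 0 and has its own scale. In all 7 panels the groups do not overlap, and HIST1H2BM and HIST1H1D show the widest gaps.

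The H3 members encode 2 proteins in all, and 10 HIST1 genes share one of them. HIST1H3B (chr6:26031650-26032060, minus strand), the most abundant H3 gene, was the only one of 9 tested that was called. It had 347, 408 and 400 CPM in the 24 h libraries, against 265, 239 and 308 CPM in the 0 h libraries. No library of one group fell among those of the other, and it rose by 0.51 ± 0.11 on the log2 scale (SE; edgeR, adjusted p = 0.0239). HIST1H3B took 39.5 ± 1.22% of H3 counts at 24 h and 30.3 ± 0.610% at 0 h (SD, n = 3 each). The call did not hold when replicates 2 or 3 of 24 h, or 1 or 2 of 0 h, were left out (edgeR, adjusted p = 0.166, 0.0977, 0.0575 and 0.192), nor with a correction for GC content (adjusted p = 0.0519). The log2 fold change in these fits was 0.42 to 0.49.

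HIST1H3C, which encodes the same H3 protein as HIST1H3B, averaged 255 ± 22.1 CPM at 24 h and 265 ± 49.1 CPM at 0 h, a log2 fold change of -0.06 ± 0.12 that was 0.11 without 0 h replicate 3. HIST1H3D had a value of 0.08 ± 0.14, and all of its 50-base stretches occur in another annotated gene. HIST1H3I had the most negative value of the class, -0.41 ± 0.15 (edgeR, adjusted p = 0.143). The HIST2 genes HIST2H3A, HIST2H3C and HIST2H3D had at most 14 counts in a library and were not tested.

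All 14 H4 members encode 1 protein, so that the genes differ in mRNA alone. HIST1H4A (chr6:26021679-26021990, plus strand) had 53.0, 67.7 and 51.7 CPM in the 24 h libraries, against 38.1, 27.4 and 29.5 CPM in the 0 h libraries. Every 24 h library lay above every 0 h library, and HIST1H4A rose by 0.86 ± 0.15 on the log2 scale (SE; edgeR, adjusted p = 0.00383). It took 4.29 ± 0.444% of H4 counts at 24 h and 2.72 ± 0.489% at 0 h (SD, n = 3 each). The call held without each library in turn (0.73 to 1.01), and none of its 50-base stretches was found in another gene.

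HIST1H4C, one of the abundant H4 genes, had 247, 352 and 250 CPM in the 24 h libraries, against 234, 152 and 198 CPM in the 0 h libraries. The groups did not overlap, yet its log2 fold change of 0.54 ± 0.16 missed the threshold (edgeR, adjusted p = 0.0765). It was called without 0 h replicate 3 (0.56, adjusted p = 9.86e-04) or 0 h replicate 1 (0.69, adjusted p = 0.0286), by DESeq2 (adjusted p = 0.0344) and with a GC correction (adjusted p = 0.0346). Without 24 h replicate 2 or 0 h replicate 2 the log2 fold change was 0.35 and 0.38. HIST1H4E, the most abundant member per length at 0 h, had a value of 0.04 ± 0.11.

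HIST1H4J had 177, 284 and 308 CPM in the 24 h libraries, against 167, 220 and 302 CPM in the 0 h libraries, and a log2 fold change of 0.16 ± 0.20. Its coding sequence is identical to that of HIST1H4K, which had at most 7 counts in a library, so the 2 cannot be told apart over that stretch. HIST1H4F had the most negative value of the class, -0.32 ± 0.14, HIST4H4 had 0.07 ± 0.15, and HIST2H4B, with 5 to 16 counts in a library, had -0.06 ± 0.41.

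Identical proteins and near-identical mRNAs limit what a single gene's count means. A protein identical to that of another member was encoded by 41 of 66 members. More than 50% of the 50-base stretches were shared with another gene in 16 members, and 20 members shared at least 1 stretch as long as a 150-base read. Both strands were searched, and part of this sharing is overlap of annotated genes at the same place, not similarity between copies. Exons of 14 members overlap those of another gene, in 6 of them on the same strand. HIST1H2AK, for 1, shares all of its stretches with HIST1H2BN, which overlaps it on the opposite strand. Strand use in counting and the handling of reads with several matches are unknown, so reads of such genes may have been split or pooled. Of the 7 called members, 6 share under 10% of their 50-base stretches with any other gene, and the exception is HIST1H2AJ.

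H2A and H2B genes often lie back to back and start close to each other. There were 10 such pairs, with 218 to 330 bases between the annotated genes, and in 7 of them both promoter windows held the same octamer. The pair of HIST1H2BK and HIST1H2AH could not be assessed for this, since HIST1H2AH had no matched promoter window. The log2 fold changes of the neighbours had the same sign in all 10 pairs, negative in 6 and positive in 4. In the pair with the lowest values, HIST1H2BM had -2.60 and HIST1H2AJ -0.73. In the HIST3 pair, HIST3H2BB had -1.19 and HIST3H2A -0.69. HIST1H2BF (-0.48) neighbours HIST1H2AD (-0.33 ± 0.16), which was not called. At the other end, HIST1H2BK (0.32) neighbours HIST1H2AH (0.14 ± 0.13), and HIST1H2BJ (0.13 ± 0.13) neighbours HIST1H2AG (0.35 ± 0.12), none of them called. The signs of small values are not firm, since HIST2H2AC, HIST2H2BE, HIST1H2AM and HIST1H2BO changed sign when single libraries were left out. HIST1H2AE was above 0 with library totals taken from the FPKM values and with limma on FPKM. Its neighbour HIST1H2BG stayed below 0 in every alternative fit, so the signs of that pair differed there.

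**Figure D4:**
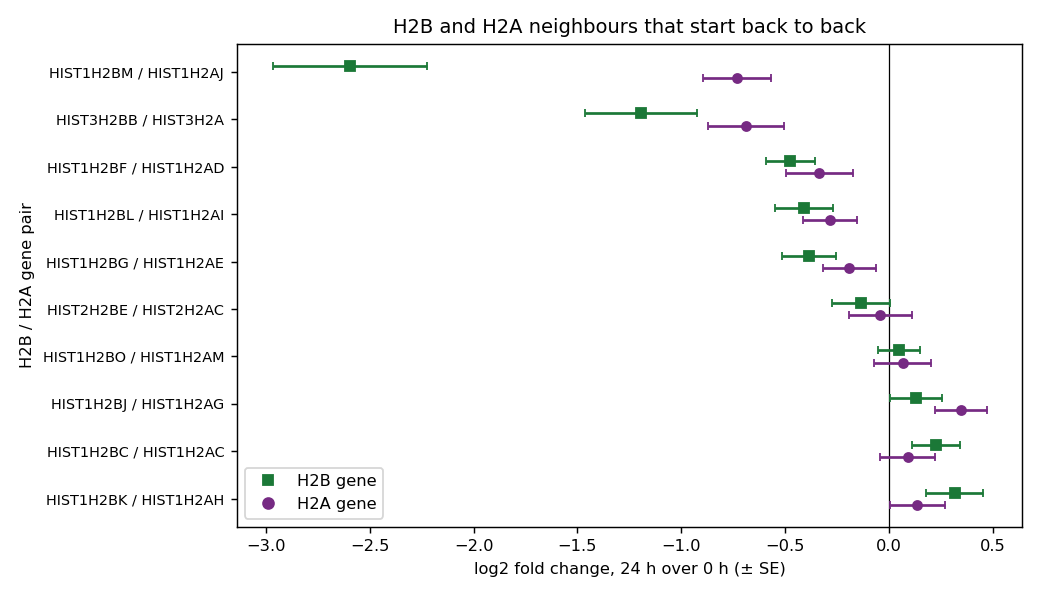
Log2 fold change of 24 h over 0 h with its standard error (n = 3 libraries per group) for the H2B gene (green squares) and the H2A gene (purple circles) of each of the 10 back-to-back pairs, in order of the H2B value. The neighbours lie on the same side of 0 in every pair, and in the HIST1H2BM and HIST1H2AJ pair they lie farthest apart.

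Along chromosome 6 the HIST1 members fall into 3 blocks, split at gaps of over 500 kb. The first (chr6:26017085-26285638) holds 31 members, of which 29 were tested. Both rises and 2 falls, HIST1H1D and HIST1H2BF, lie there, and its median log2 fold change was 0.02. The second (chr6:27125897-27147515) holds 5 members, none of them called, with a median of 0.14. The third (chr6:27807444-27893843) holds 16 members, of which 14 were tested, with HIST1H2AJ and HIST1H2BM called lower and a median of -0.12. The nearest neighbours of HIST1H1D, HIST1H3E (0.46 ± 0.24) and HIST1H4F (-0.32), were not called. From HIST1H1D to the end of the first block every value was below 0. After HIST1H4F came HIST1H3F (-0.15 ± 0.16), HIST1H2BH (-0.42 ± 0.14), HIST1H3G (-0.41 ± 0.13), HIST1H2BI (-0.37 ± 0.12) and HIST1H4H (-0.24 ± 0.11). In this run only HIST1H1D was called, and the groups overlapped only for HIST1H3F. Over all genes, 11.7% had lower groups without overlap. The run was marked out after its signs were seen, so that share is no fair measure for it.

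**Figure D5:**
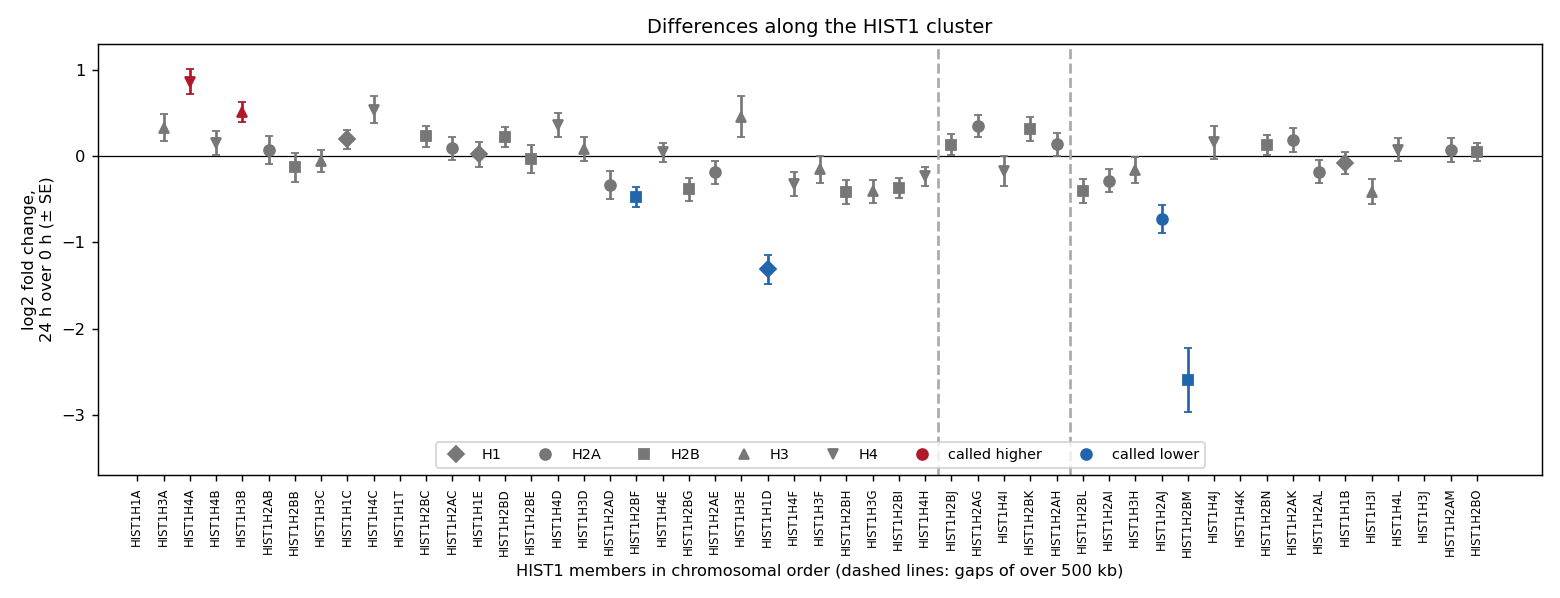
Log2 fold change of 24 h over 0 h with its standard error (n = 3 libraries per group) for the HIST1 members in chromosomal order; symbols mark the class, colours the calls, and members without a point were not tested. HIST1H1D and the neighbours HIST1H2AJ and HIST1H2BM stand out below the others.

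Some members are known to make polyadenylated mRNA as well, outside S phase. Of the 6 listed here, HIST1H1C, HIST1H2AC, HIST1H2BD, HIST1H2BJ, HIST1H2BK and HIST2H2BE, none was called, 5 had values above 0, and the median log2 fold change was 0.16. Of the other 51 tested members, 23 had values above 0, and their median was -0.06. Within H2B the medians were 0.18 for the 4 listed genes and -0.39 for the other 13, 3 of which were called lower. The list was written with earlier results of these data known, and these medians carry no test.

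Of 25 tested genes of histone transcription and stem-loop processing none was called, where 0.866% of all genes were called higher and 2.08% lower, so that so short a list would hold few calls at that share. In this list 14 genes had log2 fold changes above 0, the range was -0.33 to 0.32 and the median 0.08. SLBP, which binds the stem-loop, averaged 166 ± 10.2 CPM at 24 h and 153 ± 9.27 CPM at 0 h (log2 fold change 0.12 ± 0.10). NPAT, the coactivator that cyclin E and CDK2 act on at histone genes, averaged 38.0 ± 2.08 CPM at 24 h and 39.2 ± 1.46 CPM at 0 h (-0.05 ± 0.11). Of 23 histone chaperones and import factors none was called, 13 had values above 0, the range was -0.36 to 0.35 and the median 0.04.

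Replacement histones are made mostly from polyadenylated mRNAs and do not depend on DNA replication, and of 11 tested 1 was called higher and 2 lower, where 0.866% of all genes were called higher and 2.08% lower. H2AFX encodes H2A.X, the variant that is phosphorylated at DNA breaks, and its gene makes both stem-loop and polyadenylated mRNA. It had 258, 304 and 270 CPM in the 24 h libraries, against 179, 174 and 216 CPM in the 0 h libraries. All 24 h libraries lay above all 0 h libraries, and H2AFX rose by 0.55 ± 0.11 on the log2 scale (SE; edgeR, adjusted p = 0.0135). The call did not hold when replicate 2 of 24 h or of 0 h was left out (edgeR, adjusted p = 0.123 and 0.126; log2 fold change 0.48 in both), nor with a correction for GC content (0.38, adjusted p = 0.0968).

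H1F0, which encodes the linker histone H1.0 of resting and differentiated cells, had 14.2, 16.4 and 15.2 CPM in the 24 h libraries, against 22.9, 25.3 and 24.7 CPM in the 0 h libraries. It fell by 0.67 ± 0.14 on the log2 scale (SE; edgeR, adjusted p = 0.0164). CENPA, the H3 variant of centromeres, had 23.9, 25.5 and 25.5 CPM in the 24 h libraries, against 36.7, 34.3 and 36.4 CPM in the 0 h libraries, and fell by 0.52 ± 0.12 (adjusted p = 0.0288). In both genes the groups did not overlap and the libraries of a group lay close together. The H1F0 call held only without 0 h replicate 1 or 3 and the CENPA call only without 0 h replicate 3 among the fits that left out 1 library, with log2 fold changes of -0.72 to -0.62 for H1F0 and -0.55 to -0.49 for CENPA over all 6. The 2 most abundant replacement histones per length were H2AFZ, which encodes H2A.Z and had a log2 fold change of 0.12 ± 0.11, and H2AFX itself, and the H3.3 genes H3F3A (0.12 ± 0.11) and H3F3B (0.09 ± 0.11) were not called.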

How the data were processed

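The deposited table of read counts per gene holds whole numbers, and the deposited FPKM table was made by the authors and covers the same libraries. The submitters' processing notes name the build GRCh38 and the tools bcl2fastq, TopHat2 and edgeR. Versions, read counter, strand use and the treatment of multiply mapped reads were not given in the sources used here. Per the labels' protocols, libraries were directional, paired-end (150 nt) and rRNA-depleted.

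Counts at 24 h were compared with 0 h by edgeR 4.0.16 (quasi-likelihood test, TMM scaling, filterByExpr, R 4.3.3), fitted to the whole table, with Benjamini-Hochberg adjustment over 13389 genes. Levels are CPM of TMM-scaled totals, and class sums, described without a test, cover tested and untested members. Alternatives were other scalings, other count filters, DESeq2 1.42.0, limma 3.58.1 on log2(FPKM + 1 or + 0.1), robust dispersion, the replicate number as a block, length and GC corrections, protein-coding genes alone, and libraries left out.

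Genes were placed by GENCODE 29, in which all 66 identifiers matched without their version (55 with it), and stem-loops were read from its transcripts. Promoters come from RefSeq (GRCh38.p14). Members and lists were chosen with earlier results of these data known. Named members are all called ones, the 3 of highest FPKM per class, all tested H1 genes, the extreme log2 fold changes of each class, tested HIST2, HIST3 and HIST4 genes, testis-linked genes and neighbours in pairs. Genes of other lists are named where called, with SLBP, NPAT and the 2 replacement histones most abundant per length. Some others (HIST1H1A, HIST1H2BC, HIST1H2BE, HIST1H2BH, HIST1H2BI, HIST1H3E, HIST1H3F, HIST1H3G, HIST1H4H, H3F3A and H3F3B) are given for context and were chosen after their values were seen. Of the marker genes, 1 is not reported here.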

Additional observations from a re-analysis of the deposited data

How the results depend on the processing

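HIST1H1D, HIST1H2BM and HIST1H4A kept their call and direction under every alternative run. Members called higher (2) and lower (5) numbered 14 and 4 with library totals taken from the FPKM values, 5 and 5 where low counts were kept, 2 and 8 with a length correction, and 6 and 2 without both libraries numbered 3. Limma on log2(FPKM + 1) and on log2(FPKM + 0.1) called 2 members lower. When libraries were left out in turn, 1 to 12 members were called higher and 2 to 6 lower. The 12 came without 0 h replicate 3, and the 2 lower ones without 24 h replicate 3 or 0 h replicate 2. Over all genes, 116 were called higher and 278 lower, against 2354 higher with FPKM-derived totals, 345 higher with no filter, 685 and 82 or 625 and 74 with limma (+ 1 or + 0.1), 272 and 466 with the GC correction, 306 and 539 without both libraries numbered 3, and 21 to 574 higher and 92 to 923 lower when libraries were left out in turn. FPKM-derived totals moved the median log2 fold change of all genes to 0.24 and the share of calls that were higher to 92.3%, against 29.4%. The cause of these shifts was not tested.

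Log2 fold changes of genes that were not called crossed 0. With FPKM-derived totals and with limma (+ 1, + 0.1), HIST1H1B had 0.16, 0.16 and 0.16, HIST1H2AE 0.053, 0.064 and 0.064, HIST1H3C 0.19, 0.19 and 0.19, HIST2H2AC 0.20, 0.23 and 0.23, HIST2H2BE 0.11, 0.10 and 0.11, HIST2H4B 0.18, 0.11 and 0.23, and NPAT 0.19, 0.15 and 0.18. With the GC correction HIST1H1E had -0.066, HIST1H2AM -0.043, HIST1H2BO -0.010 and HIST1H3D -0.031. With the length correction HIST1H1E had -0.044 and HIST1H4E -0.056. With no filter HIST2H2AC had 0.0048 and NPAT 0.0022. Without both libraries numbered 3, HIST1H1B had 0.091, HIST1H2BO -0.0094, HIST1H3C 0.073, HIST2H2AC 0.19 and HIST2H4B 0.12. When libraries were left out in turn, values ran from -0.18 to 0.072 for HIST1H1B, -0.080 to 0.23 for HIST1H1E, -0.048 to 0.28 for HIST1H2AM, -0.016 to 0.11 for HIST1H2BO, -0.14 to 0.11 for HIST1H3C, -0.084 to 0.17 for HIST1H3D, -0.032 to 0.13 for HIST1H4E, -0.027 to 0.41 for HIST1H4J, -0.18 to 0.21 for HIST2H2AC, -0.24 to 0.034 for HIST2H2BE, -0.36 to 0.30 for HIST2H4B and -0.12 to 0.21 for HIST4H4.

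Same-numbered libraries had correlations of 0.241, -0.0199 and 0.422 in their deviations from the group means, and 24 h replicate 2 did not correlate best with its own number, so the numbers were not taken to pair the libraries. With the replicate number as a block, 739 genes were called higher and 959 lower, among them 5 and 14 members, HIST1H4C and HIST3H2A included. HIST1H4C was also called with FPKM-derived totals, where low counts were kept and without both libraries numbered 3.

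Depth limits the rare members most: the 9 untested ones had at most 14 counts in a library, and HIST2H4B, with 5 to 16 counts, had a standard error of 0.41 on the log2 scale.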
